A study of Homo sapiens with 8 samples.

Results

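The 39 genes described here code for the glucose transporters, the enzymes and regulators of glycolysis, the enzymes and carriers of lactate, and the oxygen sensing and hypoxia response genes that are listed by name, and all 39 passed the filter on low counts among the 18201 genes tested. They fell into 24 genes of glycolysis and lactate and 15 genes of oxygen sensing and the hypoxia response. Their transcripts were measured by RNA sequencing in oligodendrocyte progenitor cells (OPCs) derived from the established human embryonic stem cell line H9, after 2 days on a coated dish in OPC medium and without forced expression of SOX10. The coatings were Matrigel, a basement membrane extract that served as the control (2 libraries, replicates 2 and 3), vitronectin (VN, 3 libraries) and VNP2, a peptide designed from the vitronectin sequence and produced as a fusion with a mussel adhesive protein (3 libraries). All cells came from 1 cell line, and nothing in the labels says that replicates were separate cultures, so that p-values measure the spread between these libraries, which may be technical.

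Glycolysis splits glucose into pyruvate in the cytosol. Hexokinase, phosphofructokinase and pyruvate kinase catalyze its irreversible steps, and lactate dehydrogenase turns pyruvate into lactate, which monocarboxylate transporters carry across the membrane. When oxygen is scarce, the prolyl hydroxylases EGLN1 and EGLN3 no longer mark the HIF alpha subunits HIF1A and EPAS1 for degradation. HIF then binds a short core motif and raises the transcription of glucose transporters, glycolytic enzymes and genes such as VEGFA and ADM. HIF1A is controlled mainly at the level of its protein, so its mRNA does not report its activity. Oligodendrocyte lineage cells are known to rely on glycolysis and to export lactate.

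The sequences that bear on the measurements below are of 2 kinds. PKM makes the isoforms PKM1 and PKM2 by including either exon 9 or exon 10, which have the same length. Reads that cover these exons can be told apart by the bases at which the exons differ. The shares given below rest on estimates for whole transcripts, not on these bases alone. On the minus strand of chromosome 15 (GRCh38, GENCODE v29), exon 9 lies at chr15:72203022-72203188 and exon 10 at chr15:72202454-72202620. Each exon has 167 coding bases, and they differ at 62 of these positions (62.9% identity), which are in capitals.
PKM exon 9: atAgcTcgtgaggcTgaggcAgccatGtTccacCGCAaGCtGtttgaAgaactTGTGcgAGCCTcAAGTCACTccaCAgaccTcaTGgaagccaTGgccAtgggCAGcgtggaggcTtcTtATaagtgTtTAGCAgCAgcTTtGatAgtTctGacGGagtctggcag
PKM exon 10: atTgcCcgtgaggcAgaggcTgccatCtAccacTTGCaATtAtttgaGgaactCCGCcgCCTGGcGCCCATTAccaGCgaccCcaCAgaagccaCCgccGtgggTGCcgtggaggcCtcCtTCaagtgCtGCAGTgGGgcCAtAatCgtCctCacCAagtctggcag
The differences are spread along the whole exon, apart from the last bases.

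The core bound by HIF is ACGTG or GCGTG. It was searched on both strands in RefSeq windows (GRCh38.p14) from 250 bases before to 50 bases after each annotated start, and ACGTG can be part of the E-box CACGTG. Of the 39 genes, 34 had such a window, with 62 windows in all. A core was found in 42 of the 62 (67.7%), against 48.4% of the 35116 windows of all genes, and ACGTG in 38.7% against 21.4%. Windows of 1 gene overlap or share sequence, and CACGTG was found in 12.9% against 7.26%. The stretches below are of 25 bases on the gene's own strand around 1 core for 11 of the 14 members whose counts are given in full. Cores are in capitals, and a core on the other strand reads CACGT or CACGC. In ALDOA cores of both strands overlap in the E-box CACGTG, and in LDHA the capitals also mark the end of a neighboring core. SLC2A3 and VEGFA had no window, and the window of P4HA2 held no core.
HK1 (chr10:69318186-69318210, plus strand): ttaggcggggCACGCcggggagagg
PFKP (chr10:3069040-3069064, plus strand): acgagcgcctACGTGatgcccggcc
ALDOA (chr16:30064376-30064400, plus strand): cagggaggcCACGTGatccgagtcc
ENO1 (chr1:8878744-8878768, minus strand): agctgaggggGCGTGccccggaggc
PKM (chr15:72231164-72231188, minus strand): acagcagctgCACGCgccgtggctc
LDHA (chr11:18394480-18394504, plus strand): TGggttcccgCACGTccgccggccc
LDHB (chr12:21657801-21657825, minus strand): ggaggagacgCACGCagctgacttt
HIF1A (chr14:61695299-61695323, plus strand): gctgagagcgGCGTGggctggggtg
EPAS1 (chr2:46297280-46297304, plus strand): gcctgccggcGCGTGcccgcccaca
ADM (chr11:10304962-10304986, plus strand): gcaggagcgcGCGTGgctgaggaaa
DDIT4 (chr10:72273789-72273813, plus strand): aacgttgcttACGTGcgcccggagt
PFKP, ALDOA, LDHA and DDIT4 held the ACGTG form, and HK1, ENO1, PKM, LDHB, HIF1A, EPAS1 and ADM only the GCGTG form. Most of these 11 genes are shown because they were called, and HIF1A alone among them was called in no pair of substrates. Whether a core goes with a change was not tested.

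The 8 libraries held 37997896 to 39429453 estimated counts, of which 98.79 to 98.88% fell in genes used here. VN replicate 1 stood apart from the other VN libraries, with a median chi-square per gene of 3.23 and 3.93 against them, compared with 0.829 between VN replicates 2 and 3 and 0.455 from sampling noise. Of the 24 genes of glycolysis and lactate, 16 had their highest VN value in VN replicate 1. Of the oligodendrocyte progenitor markers, OLIG2 was at 41.3, 54.0 and 50.8 TPM on Matrigel, VN and VNP2. PTPRZ1 was at 108.1, 150.5 and 178.1 TPM in the same order. PDGFRA and CSPG4 had 4716 and 1379 counts in all libraries together, but SOX10 had only 20.

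Glycolytic enzymes were the most abundant of the 39 genes. Levels of different genes are compared in TPM, a transcript abundance that is scaled by length and by the library's total. GAPDH, the dehydrogenase of the middle of the pathway, was highest, at 3299 ± 33.1 TPM on Matrigel (SD, n = 2), 3117 ± 199 on VN and 3253 ± 59.6 on VNP2 (SD, n = 3 each). LDHB, the lactate dehydrogenase subunit that favors the use of lactate, came second at 1437 ± 25.1, 1384 ± 28.8 and 1443 ± 31.6 TPM. ENO1 and PKM followed at 1082 ± 37.0 and 900.6 ± 0.0321 TPM on Matrigel. TPI1, ALDOA and PGAM1 lay between 357.2 and 683.8 TPM in every group mean. LDHA, the subunit that favors making lactate, was at 144.2 ± 5.66 TPM on Matrigel and amounted to 9.13% of the sum of LDHA and LDHB there. The carrier SLC16A1 was far above SLC16A3, which made up 1.61% of their sum. HIF1A was at 158.7 ± 0.581 TPM on Matrigel, whereas EPAS1, at 0.702 ± 0.00585 TPM, was the lowest of the 39 genes there, below ANGPTL4 at 0.780 TPM. On VNP2, at 2.23 TPM, it was above ADM, SLC16A3 and ANGPTL4. The 24 genes of glycolysis and lactate together took 9539 and 9554 TPM on Matrigel, 8657 to 9238 on VN and 8952 to 9299 on VNP2, so the ranges of VN and VNP2 both lay below that of Matrigel and overlapped each other.

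**Figure D1:**
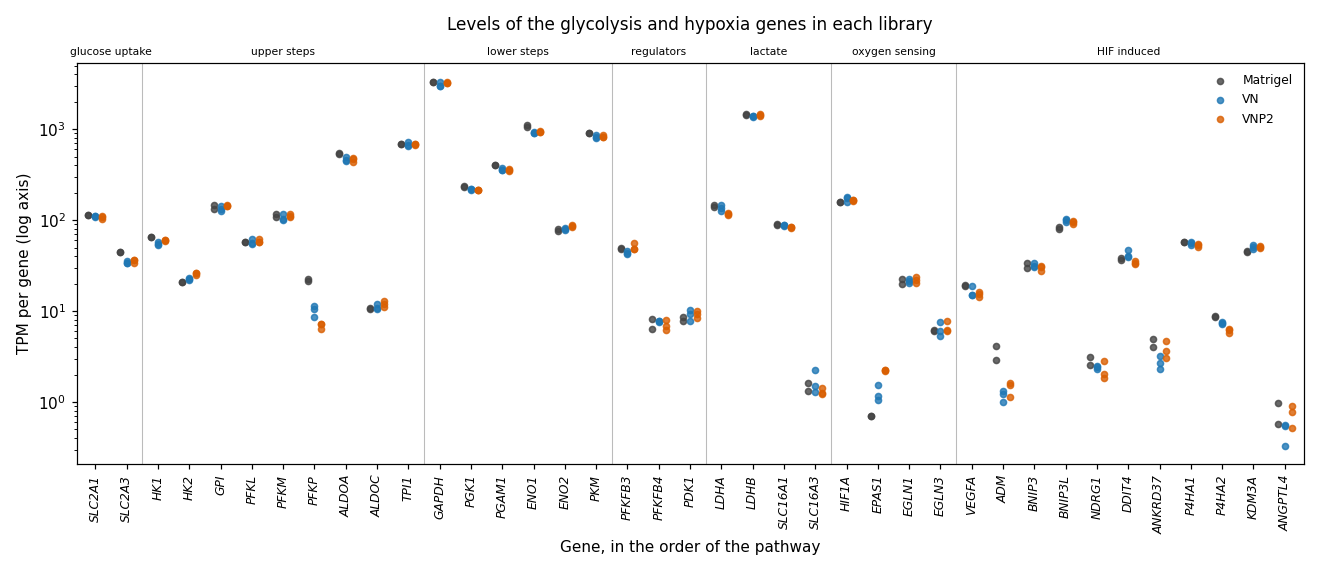
Level of each of the 39 genes in TPM (log axis) in the 8 libraries, with 1 point per library colored by substrate and genes ordered by their place in the pathway. GAPDH is the highest at about 3299 TPM on Matrigel, and on VNP2 PFKP, EPAS1 and ADM lie farthest from their level on Matrigel.

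The genes called on VN and VNP2 were mostly lower than on Matrigel. Against Matrigel, 12 of the 39 genes fell and 2 rose on VN, and 15 fell and 3 rose on VNP2 (edgeR quasi-likelihood test, adjusted p under 0.05). Over all tested genes 15.2% were called on VN (9.41% lower, 5.81% higher) and 16.6% on VNP2 (9.13% lower, 7.45% higher). These highly expressed genes are to be read against other genes of high count, since 26 of the 39 reached a mean of 1000 normalized counts, and among all genes that did 22.1% and 21.7% were called. Of the 39, 11 were called in any pair with a change of at least 1.2-fold, as were 15.7% of all tested genes and 14.6% of the genes of high count. Between VNP2 and VN, 3 of the 39 were higher on VNP2 and 3 lower, where 5.18% of all genes were called (3.07% higher, 2.1% lower, and 6.52% of the genes of high count). Across the 3 substrates 19 of the 39 differed, where 19.3% of all genes did and 26.1% of the genes of high count. Of the 24 genes of glycolysis and lactate, 10 fell on VN and none rose, and 11 fell and 1 rose on VNP2. Of the 15 genes of oxygen sensing and the hypoxia response, 2 fell and 2 rose on VN, and 4 fell and 2 rose on VNP2. The median log2 fold change of the 39 genes was -0.13 on VN and -0.15 on VNP2, beside 0.0083 and 0.0030 over all tested genes. Both comparisons use the same 2 Matrigel libraries. Fewer cells of a type and less RNA per cell cannot be told apart in these bulk libraries.

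The genes lower on both VN and VNP2 were SLC2A3, HK1, PFKP, ALDOA, PGK1, PGAM1, ENO1, PKM, ADM and P4HA2, and those higher on both were EPAS1 and BNIP3L. Of these 12 genes, 7 lost at least 1 of these calls without a Matrigel library. Of the 39 genes, 18 were called in no pair of substrates, and 21 in at least 1, where 23.0% of all genes and 31.0% of the genes of high count were. The libraries of VN and Matrigel did not overlap in 22 genes that were lower and 3 that were higher, where 22.7% and 21.7% of all genes were so separated. For VNP2 these were 19 and 5 genes, where 25.0% and 23.1% of all genes were. The counts depended on single libraries. Without Matrigel replicate 2 or replicate 3, 6 or 8 genes were called on VN and 10 or 11 on VNP2, whereas 21 and 20 were called without VN replicate 1. The genes called on VN only without that library were GAPDH, GPI, KDM3A, PFKL, PFKM, SLC16A1 and SLC2A1.

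**Figure D2:**
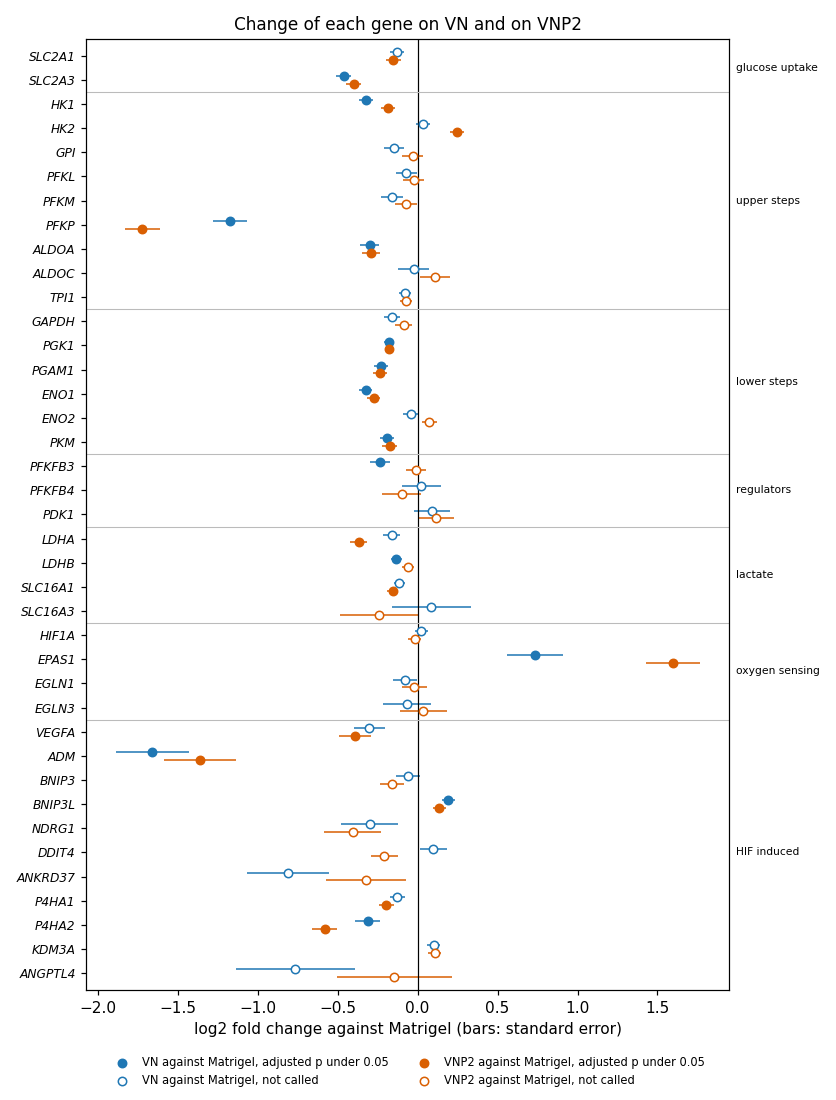
Log2 fold change of each gene on VN (blue) and on VNP2 (orange) against Matrigel, with bars of 1 standard error and filled points at an adjusted p under 0.05. Most points lie between 0 and -0.5, with PFKP and ADM far to the left (-1.72 and -1.36 on VNP2) and EPAS1 far to the right (1.60 on VNP2).

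Glucose uptake was represented by SLC2A1 (GLUT1), the widespread glucose transporter, and SLC2A3 (GLUT3), the high-affinity transporter typical of neurons. SLC2A3 (chromosome 12, 7919230 to 7936275) had normalized counts of 3589 and 3555 on Matrigel, against 2570, 2671 and 2531 on VN and 2796, 2758 and 2567 on VNP2. Both Matrigel libraries were above all others, and VN and VNP2 overlapped. It was 1.38-fold lower on VN (log2 fold change -0.46, SE 0.05, adjusted p = 0.000121 by edgeR) and 1.32-fold lower on VNP2 (-0.40, SE 0.05, adjusted p = 0.000230 by edgeR). On VN the value of SLC2A1 was -0.13 (adjusted p = 0.0806 by edgeR), and on VNP2 it fell by 0.15 on the log2 scale (SE 0.04, adjusted p = 0.0413 by edgeR). The latter call did not hold in 6 of 16 alternatives, which were other settings, other tools and fits without 1 library, among them the fit with no length offsets and those without either Matrigel library (adjusted p from 0.00827 to 0.193 by edgeR, DESeq2 or limma). The share of SLC2A3 in the TPM of both transporters was 28.4 and 28.0% on Matrigel, 22.9 to 24.5% on VN and 24.0 to 26.0% on VNP2.

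Hexokinase traps glucose in the cell as glucose 6-phosphate. HK1, the constitutive form, was lower on both vitronectin substrates, while HK2, the inducible form, was higher on VNP2. HK1 (chromosome 10, 69269984 to 69401884) had 6230.5 and 6074.5 normalized counts on Matrigel, against 5199, 4727 and 4835 on VN and 5412, 5337 and 5461 on VNP2. The 3 substrates did not overlap, with VN lowest. The fall was 1.25-fold on VN (log2 fold change -0.32, SE 0.04, adjusted p = 0.000820 by edgeR) and 1.14-fold on VNP2 (-0.19, SE 0.04, adjusted p = 0.0152 by edgeR), and the latter call was lost without either Matrigel library or VNP2 replicate 2. HK2 ranged from 2854 to 3071 on Matrigel and VN and from 3310 to 3477 on VNP2. It rose 1.19-fold on VNP2 against Matrigel (log2 fold change 0.25, SE 0.05, adjusted p = 0.00403 by edgeR) and 1.16-fold against VN (0.21, SE 0.04, adjusted p = 0.0133 by edgeR), a call lost in 4 of the 8 fits that left out a library. HK2 thereby made up 23.9 and 24.5% of hexokinase TPM on Matrigel, 28.8 to 29.2% on VN and 29.8 to 30.3% on VNP2. The summed hexokinase TPM was 85.6 and 86.6 on Matrigel, 75.4 to 80.4 on VN and 84.4 to 87.3 on VNP2, so the sum on VNP2 overlapped that on Matrigel.

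Phosphofructokinase, the committed step, is built from the muscle (PFKM), liver (PFKL) and platelet (PFKP) subunits. PFKP showed the largest change among the 24 genes of glycolysis and lactate. PFKP (chromosome 10, 3066333 to 3137712) had 1362 and 1424 normalized counts on Matrigel (1393 ± 43.7, SD, n = 2), 700.1, 521 and 631 on VN (617 ± 90.4, SD, n = 3) and 442, 443 and 383 on VNP2 (423 ± 34.6, SD, n = 3). The 3 substrates did not overlap. PFKP was 2.26-fold lower on VN (log2 fold change -1.17, SE 0.11, adjusted p = 5.47e-05 by edgeR) and 3.30-fold lower on VNP2 (-1.72, SE 0.11, adjusted p = 2.79e-06 by edgeR). It was 1.46-fold lower on VNP2 than on VN (-0.55, SE 0.10, adjusted p = 0.0137 by edgeR), a call that was lost without VN replicate 3 (adjusted p = 0.0521 by edgeR) or VNP2 replicate 3 (adjusted p = 0.0622 by edgeR). The same order was seen in the coding transcript PFKP-203, which held 89.5% of the gene's TPM and was at 20.2 and 20.0 TPM on Matrigel, against 9.46, 7.86 and 9.05 on VN and 6.33, 6.26 and 5.76 on VNP2.

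PFKL and PFKM did not pass the test in any pair, with log2 fold changes between -0.16 and 0.09. PFKM was the main form at 58.0 to 64.2% of phosphofructokinase TPM in every library. The share of PFKP was 11.3 and 11.4% on Matrigel, 5.28 to 6.26% on VN and 3.63 to 4.01% on VNP2. Summed over the 3 genes, the level was 188.0 and 195.6 TPM on Matrigel, 164.3 to 190.7 on VN and 173.2 to 180.8 on VNP2. The fall of PFKP thus concerned a minor form. The sum on VN overlapped that on Matrigel through VN replicate 1, whereas all VNP2 sums lay below both Matrigel sums.

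**Figure D3:**
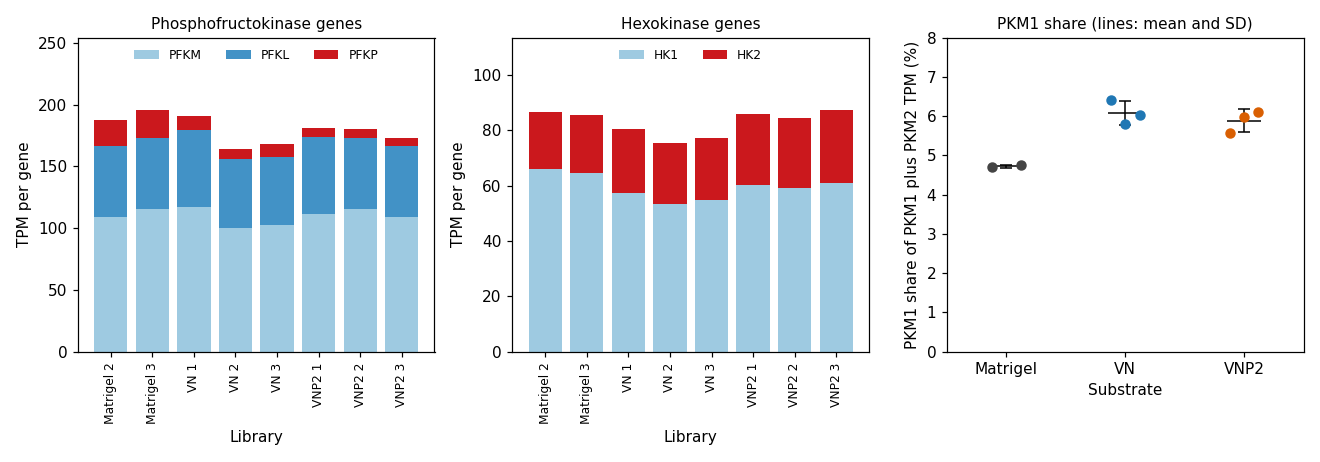
Left and middle, TPM per library of the phosphofructokinase and hexokinase genes, stacked from 0; right, PKM1 in percent of PKM1 plus PKM2 TPM, with points for libraries and lines for the mean and SD. PFKP shrinks from 11.4% of phosphofructokinase TPM on Matrigel to 3.88% on VNP2, and both Matrigel libraries have the lowest PKM1 share.

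ALDOA, the main aldolase, which cleaves the 6-carbon sugar, was lower on both substrates (chromosome 16, 30064164 to 30070457). Its normalized counts were 17886 and 17193 on Matrigel, against 15306, 13859 and 13560 on VN and 15027, 13539 and 14362 on VNP2. Matrigel was above all other libraries, and VN and VNP2 overlapped. The fall was 1.23-fold on VN (log2 fold change -0.30, SE 0.06, adjusted p = 0.00598 by edgeR) and 1.23-fold on VNP2 (-0.29, SE 0.06, adjusted p = 0.00525 by edgeR), and both calls were lost without Matrigel replicate 2. The isomerases GPI and TPI1 and the brain aldolase ALDOC did not pass the test in any pair.

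Of the 6 genes of the lower, energy-yielding steps, PGK1, PGAM1, ENO1 and PKM fell on both substrates, and GAPDH and ENO2 did not pass the test. ENO1, the widespread enolase (chromosome 1, 8861000 to 8879250), had 42794 and 44691 normalized counts on Matrigel, against 36674, 34115 and 34082 on VN and 37273, 35668 and 35525 on VNP2. All Matrigel libraries were above all others. It was 1.25-fold lower on VN (log2 fold change -0.32, SE 0.04, adjusted p = 0.000482 by edgeR) and 1.21-fold lower on VNP2 (-0.27, SE 0.04, adjusted p = 0.00104 by edgeR). PGK1 and PGAM1, the kinase and mutase before it, were lower by smaller steps, PGK1 by 1.13-fold on both substrates and PGAM1 by 1.17-fold on VN, a call lost without Matrigel replicate 2, and 1.18-fold on VNP2. PGK1 was measured with a small spread, at 12641 and 12482 on Matrigel and between 11042 and 11202 in the 6 other libraries. ENO2, the neuronal enolase, made up 6.71 and 6.74% of enolase TPM on Matrigel, 7.95 to 8.12% on VN and 8.25 to 8.67% on VNP2. GAPDH, often used as a reference gene, had 100720 and 98812 normalized counts on Matrigel, 84963 to 97506 on VN and 92194 to 95708 on VNP2. Its log2 fold changes were -0.16 on VN (adjusted p = 0.0673 by edgeR) and -0.09 on VNP2 (adjusted p = 0.316 by edgeR).

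PKM, pyruvate kinase (chromosome 15, 72199029 to 72231822), makes pyruvate and ATP. Its normalized counts were 48337 and 48101 on Matrigel, against 45143, 40695 and 40818 on VN and 43919, 41906 and 42334 on VNP2. Every Matrigel library was above every other library. The fall was 1.14-fold on VN (log2 fold change -0.19, SE 0.05, adjusted p = 0.0176 by edgeR) and 1.13-fold on VNP2 (-0.17, SE 0.05, adjusted p = 0.0238 by edgeR). The call was lost in 4 of 16 alternatives on VN and in 5 on VNP2, in both without either Matrigel library and on VNP2 also with no length offsets. Between VNP2 and VN the value was 0.02 (SE 0.04), and its sign turned when single libraries were left out.

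Among coding transcripts with exon 9 or exon 10, nearly all TPM was of the PKM2 form, with exon 10. PKM2 is typical of proliferating and progenitor cells, whereas PKM1, with exon 9, is typical of neurons and muscle. The whole gene was at 900.6 TPM in both Matrigel libraries, so part of its TPM lay in transcripts counted as neither form. The PKM1 share of the TPM of the coding transcripts (6 with exon 9 and 3 with exon 10) was 4.70 and 4.75% on Matrigel, against 6.41, 5.81 and 6.03% on VN and 5.56, 5.98 and 6.12% on VNP2. Both Matrigel libraries were below all others, and VN and VNP2 overlapped. The share differed across the substrates (exact permutation test over all 560 assignments of the libraries, p = 0.0179, n = 2, 3 and 3), where the smallest p the design allows is 0.00357. In TPM, PKM1 was at 36.6 and 36.3 on Matrigel, 40.0 to 48.0 on VN and 40.5 to 43.9 on VNP2, and PKM2 at 741.2 and 728.2, 648.5 to 699.7 and 663.3 to 688.7. The marker lists given at the end moved in the same comparison, including those of neurons, and their part in the shares was not tested.

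Among the regulators, PFKFB3, which makes the activator of phosphofructokinase, was lower on VN than on Matrigel and higher on VNP2 than on VN. It had 5058 and 4910 normalized counts on Matrigel, 4090 to 4313 on VN and 4671 to 5455 on VNP2. The log2 fold changes were -0.24 on VN (SE 0.06, adjusted p = 0.0298 by edgeR) and 0.23 between VNP2 and VN (SE 0.06, adjusted p = 0.0470 by edgeR). The call on VN was lost in 4 of 16 alternatives, all without 1 library, and that between VNP2 and VN in 7, including the libraries of the pair alone. PFKFB4 and PDK1, a kinase that inhibits pyruvate dehydrogenase, did not pass the test in any pair.

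Lactate dehydrogenase changed in its LDHA subunit on VNP2. LDHA (chromosome 11, 18394388 to 18408425) had 5445 and 5125 normalized counts on Matrigel, against 4472, 5064 and 4640 on VN and 4203, 4058 and 4022 on VNP2. The VNP2 libraries were below all others. LDHA was 1.29-fold lower on VNP2 than on Matrigel (log2 fold change -0.37, SE 0.05, adjusted p = 0.000985 by edgeR) and 1.15-fold lower than on VN (-0.21, SE 0.05, adjusted p = 0.0372 by edgeR). On VN its value was -0.16 (adjusted p = 0.0710 by edgeR). The call between VNP2 and VN was lost in all but 1 of the 8 fits that left out a library, the exception being the fit without VN replicate 1. The main transcript, LDHA-203, with 62.1% of the gene's TPM, was at 82.5 and 77.8 TPM on Matrigel, 79.3 to 89.3 on VN and 73.6 to 82.9 on VNP2, so that it overlapped between the substrates.

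LDHB (chromosome 12, 21635342 to 21757857) had 36571 and 37301 normalized counts on Matrigel, against 35006, 33403 and 32684 on VN and 36324, 34769 and 35170 on VNP2. It was 1.10-fold lower on VN (log2 fold change -0.13, SE 0.04, adjusted p = 0.0329 by edgeR), and its value on VNP2 was -0.06 (adjusted p = 0.308 by edgeR). The call on VN was lost in 6 of 16 alternatives, including the libraries of the pair alone and the fits without either Matrigel library. The LDHA share of lactate dehydrogenase TPM was 9.46 and 8.79% on Matrigel, against 8.23, 9.62 and 9.06% on VN and 7.51, 7.57 and 7.43% on VNP2, with all VNP2 libraries lowest. SLC16A1 (MCT1), through which lactate leaves or enters, was 1.11-fold lower on VNP2 (log2 fold change -0.16, SE 0.03, adjusted p = 0.0113 by edgeR), a call lost without either Matrigel library or VNP2 replicate 3. SLC16A3, the lactate exporter of highly glycolytic cells, had 46.7 to 85.4 normalized counts and was not called.

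**Figure D4:**
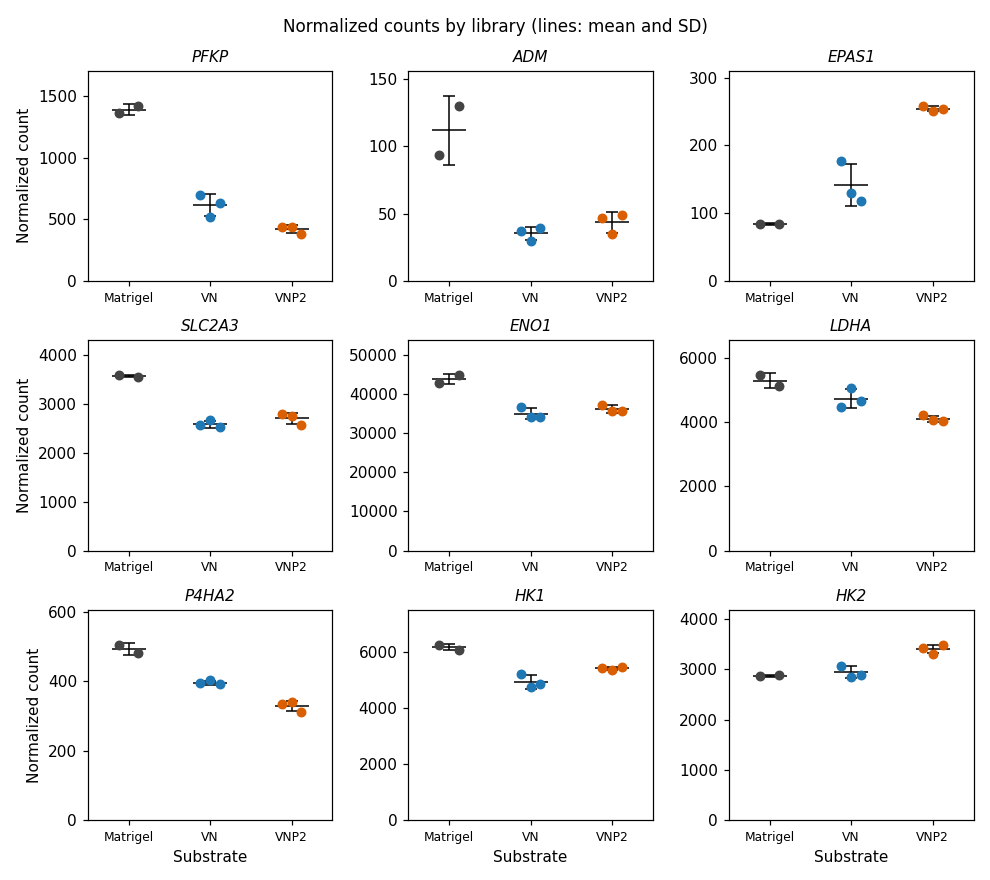
Normalized counts of 9 genes by library and substrate, from 0, with points for libraries and lines for the mean and SD. PFKP and P4HA2 step down from Matrigel to VN to VNP2, EPAS1 steps up from 84.0 to 141 to 254, and HK1 and HK2 differ in direction on VNP2.

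Of the oxygen sensing genes, EPAS1 alone was called in any pair, and it was higher on both substrates. HIF1A (chromosome 14, 61695513 to 61748259) had 11766 and 11648 normalized counts on Matrigel, against 11250, 12166 and 12295 on VN and 11760, 11357 and 11571 on VNP2. The substrates overlapped, and the log2 fold changes were 0.02 on VN, -0.02 on VNP2 and -0.04 between them (SE 0.04 each, adjusted p = 0.749, 0.830 and 0.587 by edgeR). EPAS1 (HIF2A, chromosome 2, 46293667 to 46386703), the alpha subunit best known from vascular and other specialized cells, had 84.7 and 83.3 normalized counts on Matrigel (84.0 ± 0.994, SD, n = 2). It had 176, 129 and 117 on VN (141 ± 31.2, SD, n = 3) and 258, 251 and 254 on VNP2 (254 ± 3.75, SD, n = 3). The 3 substrates did not overlap. EPAS1 was 3.02-fold higher on VNP2 than on Matrigel (log2 fold change 1.60, SE 0.17, adjusted p = 0.000104 by edgeR) and 1.82-fold higher than on VN (0.86, SE 0.14, adjusted p = 0.00595 by edgeR), and neither call was lost in any alternative.

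On VN, EPAS1 was 1.66-fold higher than on Matrigel (log2 fold change 0.73, SE 0.17, adjusted p = 0.0181 by edgeR), a call that was lost without either Matrigel library (adjusted p = 0.0954 and 0.106 by edgeR) and with the libraries of the pair alone (0.0527). The coding transcript EPAS1-201 was at 0.706 and 0.698 TPM on Matrigel, against 0.880, 1.07 and 1.05 on VN and 2.26, 2.20 and 2.22 on VNP2. The high VN replicate 1 value of the gene was therefore not seen in its coding transcript, where that library was the lowest of the VN group. Even on VNP2 EPAS1 stayed low, at 1.34% of the summed TPM of HIF1A and EPAS1, against 0.440% on Matrigel. EGLN1 and EGLN3, the oxygen sensors, were not called, with log2 fold changes between -0.08 and 0.10. The counts of EGLN1 used here held 0.782 of the mean in the authors' own table, against 0.988 to 1.011 for the other 38 genes. Its value may therefore be less complete than theirs. Transcripts of the newer annotation without a match were left out here, and their part in this gap was not tested.

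Of the 11 HIF induced genes, 8 had a negative log2 fold change on VN and 9 on VNP2. Their medians were -0.30 and -0.21, beside 0.0083 and 0.0030 over all tested genes. Of the 11, 27.3% were called on VN and 45.5% on VNP2, where 15.2 and 16.6% of all tested genes were, and not all in the same direction. On VN 2 fell (ADM and P4HA2) and 1 rose (BNIP3L), and on VNP2 4 fell (VEGFA, ADM, P4HA1 and P4HA2) and 1 rose (BNIP3L), while BNIP3, NDRG1, ANKRD37, KDM3A and ANGPTL4 were called in no pair. ADM, adrenomedullin, a vasodilator peptide (chromosome 11, 10304680 to 10307397), changed most. Its normalized counts were 93.8 and 130.2 on Matrigel (112 ± 25.8, SD, n = 2), 37.2, 29.7 and 39.2 on VN (35.4 ± 4.99, SD, n = 3) and 47.1, 34.7 and 49.0 on VNP2 (43.6 ± 7.78, SD, n = 3). Both Matrigel libraries were above all others. ADM was 3.16-fold lower on VN (log2 fold change -1.66, SE 0.23, adjusted p = 0.000906 by edgeR) and 2.56-fold lower on VNP2 (-1.36, SE 0.23, adjusted p = 0.00221 by edgeR). At these low counts ADM was dropped by the stricter filter of 50 counts in every library, and it was called under every other alternative.

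P4HA2 and P4HA1 code for collagen prolyl 4-hydroxylase subunits. P4HA2 (chromosome 5, 132191838 to 132295315) had 504 and 481 normalized counts on Matrigel, against 395, 403 and 391 on VN and 335, 341 and 312 on VNP2. The 3 substrates did not overlap and stepped down in this order. The main transcript, P4HA2-202, with 61.6% of the gene's TPM, was at 5.31 and 5.41 TPM on Matrigel and 5.5, 3.86 and 4.44 on VN. On VNP2 this transcript was at 4.12, 3.55 and 3.6 TPM, so that VN overlapped both other substrates. For the whole gene, the tests gave the following. The fall was 1.24-fold on VN (log2 fold change -0.31, SE 0.08, adjusted p = 0.0209 by edgeR) and 1.50-fold on VNP2 (-0.58, SE 0.08, adjusted p = 0.000496 by edgeR), and between VNP2 and VN the value was -0.27 (adjusted p = 0.0597 by edgeR). The call on VN was lost without either Matrigel library or VN replicate 3. P4HA1 was 1.15-fold lower on VNP2 (log2 fold change -0.19, SE 0.04, adjusted p = 0.0126 by edgeR), a call lost without either Matrigel library or VNP2 replicate 3.

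VEGFA, the angiogenic growth factor (chromosome 6, 43770184 to 43786487), had 1074 and 1053 normalized counts on Matrigel, against 806, 788 and 997 on VN and 760.3, 811 and 859.5 on VNP2. All VN and VNP2 libraries were below Matrigel. It was 1.31-fold lower on VNP2 (log2 fold change -0.39, SE 0.10, adjusted p = 0.0203 by edgeR), a call lost in 4 of 16 alternatives, without either Matrigel library, VNP2 replicate 1 or VNP2 replicate 2 (adjusted p up to 0.12 by edgeR). Its value on VN was -0.30 (adjusted p = 0.0626 by edgeR), which passed the threshold without VN replicate 3, the highest VN library (-0.42, adjusted p = 0.00696 by edgeR).

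DDIT4 (REDD1), an inhibitor of mTORC1 that also answers to other stresses (chromosome 10, 72273920 to 72276036), differed between VNP2 and VN. It had 1386 and 1455 normalized counts on Matrigel, against 1721, 1409 and 1428 on VN and 1280.1, 1194 and 1214 on VNP2. VNP2 was below all other libraries, and VN replicate 1 was well above the rest. DDIT4 was 1.24-fold lower on VNP2 than on VN (log2 fold change -0.31, SE 0.08, adjusted p = 0.0453 by edgeR), a call lost in 6 of the 8 fits that left out a library, with no length offsets and with the libraries of the pair alone. BNIP3L (NIX), a receptor for the removal of mitochondria, was 1.14-fold higher on VN (log2 fold change 0.19, SE 0.04, adjusted p = 0.0118 by edgeR) and 1.10-fold higher on VNP2 (0.13, SE 0.04, adjusted p = 0.0498 by edgeR). The call on VN was lost without either Matrigel library, and that on VNP2 in 9 of 16 alternatives, among them those with no length offsets, no filter on low counts and limma on the authors' table. Its normalized counts were 4897 and 5057 on Matrigel and between 5292 and 5835 in the 6 other libraries.

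Between VNP2 and VN, EPAS1, HK2 and PFKFB3 were higher and PFKP, LDHA and DDIT4 lower on VNP2, and the median log2 fold change of the 39 genes was 0.02, beside -0.0026 over all genes. Without VN replicate 1 these 6 were called with ENO2, GAPDH, GPI, HK1, LDHB and PFKM in addition, 12 in all. Without VN replicate 3 only EPAS1 was called, and in the other fits that left out a library 2 or 3 of the 6 were.

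The other genes of the same pathways were read from longer lists. Of 40 tested genes of glycolysis, glycogen, the pentose phosphate pathway and pyruvate use, 5 fell and 1 rose on VN, and 5 fell on VNP2. These 6 and 5 called genes of 40 were no larger a share than the 15.2 and 16.6% called among all tested genes. PYGL, which breaks down glycogen, had log2 fold changes of -0.42 and -0.56, GBE1, the glycogen branching enzyme, of -0.36 and -0.31, and TKT (transketolase) of -0.30 and -0.23 on VN and VNP2. PDHB, a subunit of pyruvate dehydrogenase, had log2 fold changes of -0.27 and -0.19. The calls of GBE1 on both substrates and of TKT on VNP2 were lost without Matrigel replicate 2, and that of PDHB on VNP2 without Matrigel replicate 3 or VNP2 replicate 2. ENO4 had a log2 fold change of 0.38 between VNP2 and VN, a call lost in 11 of 16 alternatives, DESeq2, the replicate block and the libraries of the pair alone included. FBP1, a gluconeogenic enzyme at 4.17 to 35.1 normalized counts, was called lower on VNP2 with an adjusted p at the threshold (-1.71, SE 0.52), and the call was lost in 12 of 15 alternatives. Of the 14 other oxygen sensing genes, 1 rose and 1 fell on VN and 2 rose on VNP2 (14.3% each). HIF3A rose on VNP2 (0.81, SE 0.14, adjusted p = 0.00296 by edgeR). VHL, the ubiquitin ligase subunit that recognizes hydroxylated HIF, had a log2 fold change of 0.13 on both substrates, but its call was lost in 12 of 16 alternatives on VN and in 11 on VNP2, the replicate block and limma included. SIAH2 had a value of -0.30 on VN, with the call lost in 4 of 16 alternatives.

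Among 40 other HIF induced genes, 10 fell and 2 rose on VN, and 11 fell and 3 rose on VNP2. These 12 and 14 called genes of 40 stand beside 15.2 and 16.6% of all tested genes and 22.1 and 21.7% of the genes of high count. IGFBP3, an IGF binding protein, was 3.02-fold and 3.24-fold lower on VN and VNP2, and BHLHE40, a transcriptional repressor, 2.71-fold and 2.56-fold lower. MAFF and VLDLR, the latter a lipoprotein receptor, were lower on both substrates, MAFF by log2 fold changes of -0.91 and -0.64 and VLDLR by -0.57 and -0.78. The call of MAFF on VNP2 was lost without Matrigel replicate 3. FLT1, a VEGF receptor, had 57.6 and 55.4 normalized counts on Matrigel, 63.0 to 109 on VN and 15.8 to 26.2 on VNP2, and was 3.87-fold lower on VNP2 than on VN (log2 fold change -1.95, SE 0.26, adjusted p = 0.00169 by edgeR).

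Several members and listed genes also answer to the amino acid and endoplasmic reticulum stress factor ATF4, so a list of ATF4 stress genes was read beside them. Of its 12 genes, 6 fell on VN, 8 fell on VNP2 and 4 were lower on VNP2 than on VN, and none rose. In these comparisons 15.2, 16.6 and 5.18% of all tested genes were called in either direction. VLDLR is in this list and in that of the other HIF induced genes, and it is counted in both. ATF3, a stress-induced transcription factor, was lower by log2 fold changes of -0.95 and -1.23, SLC7A11, the cystine carrier, by -0.40 and -0.72, and TRIB3 by -0.63 and -0.71 on VN and VNP2. CHAC1, which degrades glutathione, and ASNS, asparagine synthetase, were lower on VNP2 (-1.32 and -0.39). The call of TRIB3 on VN was lost in 4 of 16 alternatives and on VNP2 without Matrigel replicate 2, and that of ASNS without Matrigel replicate 3.

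The makeup of the libraries, as read from marker genes, moved in the same comparisons. The counts below stand beside 15.2% of all tested genes called on VN (5.81% higher, 9.41% lower). On VNP2 16.6% of all tested genes were called (7.45% higher, 9.13% lower), and between VNP2 and VN 5.18% (3.07% higher, 2.1% lower). Of 7 tested oligodendrocyte progenitor markers 3 rose on VN and 6 on VNP2. The other tested marker was not called on VNP2, where its libraries lay below both Matrigel libraries. The summed level of the 8 listed was 223.3 to 226.3 TPM on Matrigel, 289.9 to 304.3 on VN and 317.7 to 341.1 on VNP2. PTPRZ1, at the levels given above, was the largest part of these sums. Of 8 neuron markers 4 rose on VN and 6 on VNP2, with sums of 728.0 to 760.3, 821.0 to 875.5 and 888.0 to 908.6 TPM. Of 8 mesenchymal markers 3 rose and 1 fell on VN, and 5 rose and 1 fell on VNP2, with sums of 502.7 to 513.1, 573.0 to 610.5 and 496.1 to 532.7 TPM. Of 6 pluripotency markers 1 fell on VN, and 3 fell and 1 rose on VNP2, with sums of 92.1 to 97.0, 83.3 to 85.3 and 76.3 to 79.8 TPM, most of it LIN28A and DPPA4, while NANOG was near 0 (0.204 to 0.230 TPM in the group means). Of 4 tested neural crest markers 1 rose on VNP2, with sums of 22.3 to 23.9, 24.8 to 27.5 and 27.0 to 28.2 TPM, and SOX10 was at 0 TPM on Matrigel. Of 8 proliferation markers 3 rose on VN, 3 fell on VNP2 and 6 were lower on VNP2 than on VN, with sums of 1286 to 1305, 1419 to 1465 and 1238 to 1288 TPM. The part of these markers in the changes of the glycolysis and hypoxia genes was not tested.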

How the data were processed

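OPCs from the H9 line were sequenced as stranded polyadenylated RNA libraries, 2 from Matrigel and 3 each from VN and VNP2. Per the labels and the methods of the study, the authors trimmed reads with Trim Galore and quantified the GENCODE v32 transcripts (GRCh38.p13) with Salmon (versions not given in the sources used here). The authors deposited estimated counts and TPM per transcript, neither of them whole numbers, and a table of normalized counts per gene from DESeq2 1.27.12, a signal used here for checks and for 1 alternative.

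The deposited estimated counts were summed per gene through the transcript identifiers of GENCODE v29 (205225 of 226608 matched) and rounded. The deposited TPM values were summed likewise and used for levels of different genes, for shares and for transcripts. Pseudogene copies of members held at most 0.422% of a member's counts. A quasi-likelihood fit in edgeR 4.0.16 (R 4.3.3) of all 8 libraries used TMM normalization, transcript length offsets and a filter (minimum count 10, minimum total 15), which kept 18201 genes. Tests were two-sided, p-values were adjusted after Benjamini-Hochberg across all tested genes, and calls were made at an adjusted p under 0.05. Normalized counts are the counts after these offsets. The PKM1 share was tested with an exact permutation test of the between-substrate sum of squares. The edgeR fit, without the length offsets, and the permutation test were tried on simulated data.

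The members and lists were chosen with earlier results of these data known. Counts per library were given for members called in a pair with a change of at least 1.2-fold and for PKM, LDHA, LDHB, HIF1A and EPAS1, and from each longer pathway list the 6 called genes with the largest change at most. A gene that this rule also named is not reported here. A promoter stretch was taken around the ACGTG core nearest to a start, or else the nearest GCGTG core. Alternatives were DESeq2 1.42.0, RLE normalization, no length offsets, other count filters, a block for replicate number, fits of 2 substrates alone, limma 3.58.1 on log2(value + 1) of the authors' normalized table, and fits without 1 library each. With 2 Matrigel libraries, leaving 1 out assumes that the lone library varies like the other groups. The first Matrigel replicate was not analysed here.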

Additional observations from a re-analysis of the deposited data

How the results depend on the processing

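Among alternatives that kept all 8 libraries, the number of the 39 genes called stayed at 13 to 18 on VN, 16 to 19 on VNP2, 5 to 7 between VNP2 and VN and 17 to 22 across the substrates, and with the libraries of the pair alone it was 12, 20 and 4. Leaving out 1 library gave 6 to 21 genes on VN (of 1184 to 3911 called in all), 10 to 20 on VNP2 (of 1611 to 3653), 1 to 12 between VNP2 and VN (of 544 to 1979) and 9 to 25 across the substrates (of 1881 to 4981). The lowest counts against Matrigel came without a Matrigel library and the highest without VN replicate 1. The p of the PKM1 share ranged from 0.0381 to 0.0857 without 1 library, which also leaves fewer assignments, and was 0.0214 with estimated counts in place of TPM. Of the values given for single genes, 76 were called, of which 38 were called in every alternative run and none changed sign. Among those not called, leaving out 1 library gave log2 fold changes that crossed 0 on VN for HIF1A (-0.000292 to 0.0632) and DDIT4 (-0.00157 to 0.15), and between VNP2 and VN for PKM (-0.00747 to 0.0675), ALDOA (-0.03 to 0.0615) and VEGFA (-0.15 to 0.0252).

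Deviations of same-numbered libraries from their group means had correlations of -0.121 to 0.061. Such deviations cancel within a group of 2 or 3 libraries, so these values cannot decide whether replicate numbers pair the libraries. With a replicate block 17 of the 39 genes were called on VN, 19 on VNP2 and 6 between VNP2 and VN. Over all tested genes the block gave 3405, 3155 and 1167 calls, against 2770, 3017 and 942 without it. ANGPTL4, ANKRD37, SLC16A3, ADM, NDRG1 and EPAS1 had the fewest counts of the 39 genes (197 to 1362 over all libraries) and the largest standard errors.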
